A study of Homo sapiens with 2 samples.

Results

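PQBP1 binds polyglutamine tracts and works in the nucleus with the spliceosome, the machine that removes introns from pre-mRNA and joins the exons. CLIP methods record where such a protein touches RNA, because ultraviolet light fixes the contact in living cells and only the fixed fragments survive the washes. Contacts of a splicing factor on coding exons can come from pre-mRNA that is still being spliced or from spliced mRNA in the nucleus. Contacts on introns can come from pre-mRNA or from a small RNA encoded inside the intron. The peaks described here are the smallest units of such a map on messenger RNA, namely isolated bins of 200 nt that were annotated to exons. Such a bin can reach past the exon, and a bin annotated to an intron can likewise reach into an exon.

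The peaks were taken from the deposited peak list of the SpyCLIP-seq experiment by 3 criteria, which were the region class exon, the RNA type mRNA and a width of 1 bin. These criteria kept 707 of the 1489 peaks in the list (47.5%, Wilson 95% interval 45.0 to 50.02), on 408 of the 718 genes that the list names. The same criteria with the region class intron kept 349 peaks on 247 genes, and these served for comparison. The region class came from the authors' annotation, in which untranslated regions are classes of their own, so that an exon peak here is a peak on a coding exon as far as that annotation goes.

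The study had 2 libraries from HEY cells, a human ovarian cancer line in which PQBP1 with FLAG and Spy tags was overexpressed. Cells of both libraries carried the tagged protein and received 400 mJ/cm2 of ultraviolet light, and nuclei were isolated before lysis. The Input library is labelled as made without antibody, and the IP library with an antibody against FLAG. All values below come from the IP library, so no replicate exists, no test between conditions was possible, and the comparisons between exon and intron bins are descriptions of this library. The tagged protein was present in excess over the normal level, which limits what the map says about endogenous PQBP1. Of 11 genes that mark epithelial, ovarian tumour or mesenchymal cells, 3 carried an exon bin, namely KRT7 and KRT8, which encode keratins, and VIM, which encodes vimentin. For the other 8, among them EPCAM, PAX8 and MUC16, the list holds no peak, which says nothing about their expression.

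Each peak carries a read value, the mean number of reads per 200-nt bin, which for a peak of 1 bin is the read number itself. Exon bins held 8593 of the 39952 reads in peaks (21.5%), and intron bins held 3381. The median was 11 reads for exon bins (quartiles 9 and 14, range 6 to 70) and 8 reads for intron bins (7 and 11, range 6 to 44). On the log2 scale the mean was 3.50 (SD 0.52) for exon bins and 3.17 (SD 0.51) for intron bins, a difference of 0.33. The difference between the classes was thus smaller than the spread of bins within either class.

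The classes differed in their share of weak bins. Exactly 6 reads were found in 39 exon bins (5.52%, Wilson 95% interval 4.06 to 7.45) and in 73 intron bins (20.9%, 16.98 to 25.5). From 6 to 9 reads were found in 205 exon bins (29.0%, 25.8 to 32.4) and in 211 intron bins (60.5%, 55.2 to 65.4). Among bins with 10 reads or more, 502 in exons and 138 in introns, the median was 12 reads in both classes and the log2 difference was 0.05, a limit that acts on the compared value itself and so narrows the difference. Exon bins were most often at exactly 10 reads, with 128 bins, against 68 bins at 9 reads.

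At the upper end, 48 exon bins had 20 reads or more (6.79%, 5.16 to 8.89), beside 6.57% of all 1264 peaks of 1 bin in the list. Among intron bins 11 reached this level (3.15%, 1.77 to 5.55), and the intervals of the 2 classes overlapped. The authors' p-value was at most 1e-05 in 280 exon bins (39.6%, 36.1 to 43.3), beside 35.9% of all peaks of 1 bin, and in 93 intron bins (26.6%, 22.3 to 31.5). Among bins with 10 reads or more, however, the median p-value of the peak caller was lower in intron bins. It was 1.295e-06 there and 3.82e-06 in exon bins. The smallest p-value of the list, 5.19e-12, was given to 23 exon bins and 9 intron bins.

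**Figure D1:**
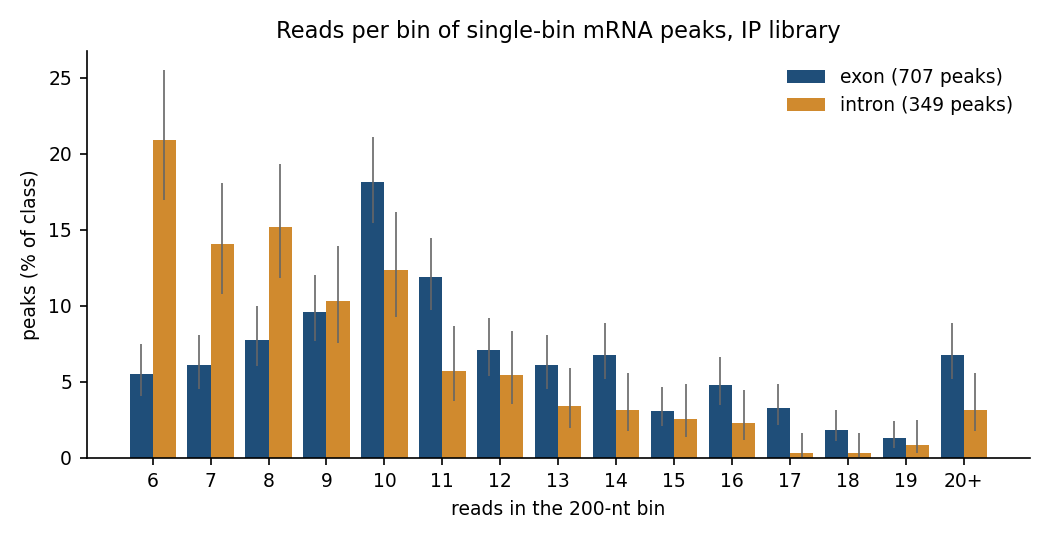
Reads in the bin (x axis, with 20 reads or more pooled) against the share of peaks in each class (y axis, percent), for exon and intron peaks of 1 bin on mRNAs, with Wilson 95% intervals as lines. Intron bins pile up at 6 to 8 reads, exon bins are most frequent at 10 reads, and both classes thin out toward higher reads.

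The strongest exon bin was on the mRNA of a chaperone, followed by those of an RNA-binding protein and of a proteoglycan. Positions are printed as listed, with the first base numbered 1, and they do not follow GRCh38. HSP90B1, which encodes the HSP90 chaperone of the endoplasmic reticulum, had 70 reads (exact Poisson 95% interval 54.6 to 88.4) on chromosome 12 from 104341001 to 104341200, which was 6.36 times the median exon bin. RBM39, an RNA-binding protein with a role in splicing, had 53 reads (39.7 to 69.3) on chromosome 20 from 34319801 to 34320000. AGRN, the proteoglycan agrin of basement membranes, had 45 reads (32.8 to 60.2) on chromosome 1 from 983401 to 983600. The intervals of these 3 bins lay above the median of 11 but overlapped one another from neighbour to neighbour.

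RPL4, a protein of the large ribosomal subunit, followed with 44 reads (32.0 to 59.1) on chromosome 15 from 66791801 to 66792000. ACTB, cytoplasmic actin, had 39 reads (27.7 to 53.3) on chromosome 7 from 5568801 to 5569000. Both genes have processed pseudogenes of nearly the same sequence, so their read numbers are uncertain. SCRIB, a scaffold of cell polarity, had 35 reads (24.4 to 48.7), and AEBP1, a protein that binds collagen in the extracellular matrix, had 34 (23.5 to 47.5). NBPF9 had 33 reads (22.7 to 46.3), but it belongs to a family of duplicated genes whose reads cannot be assigned to 1 copy with certainty.

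ARHGAP21, an inactivator of small GTPases, and LENG8 had 31 reads each. PQBP1 itself came next, with 30 reads (20.2 to 42.8). Its mRNA was also made from the overexpression construct, and the peak list does not tell these transcripts from those of the native gene. FASN, the fatty acid synthase, had 29 reads (19.4 to 41.6). TPM1, a tropomyosin that lies along actin filaments, and PLXNB2, a receptor for semaphorins, had 28 each (18.6 to 40.5). RPL19 of the large ribosomal subunit and COL6A2, a chain of type VI collagen, had 27 each (17.8 to 39.3). From RPL4 downward the intervals of neighbours overlapped widely, so that the order among them is not fixed by these counts. These 16 bins together held 584 reads, 6.80% of the reads in exon bins, and the signal of the class was spread over many weak bins rather than held by the strongest.

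The strongest intron bins were lower than the exon bins of the same rank. The intron class holds fewer bins (349 against 707), which by itself lowers the value expected at a given rank. IPO7, an importin that carries proteins into the nucleus, had 44 reads (32.0 to 59.1) on chromosome 11 from 9450201 to 9450400, and no exon bin. HSP90B1 had 41 reads (29.4 to 55.6) in an intron on chromosome 12 from 104332001 to 104332200. ATG16L1, a protein of autophagy, had 30, and TOP2A, the DNA topoisomerase of dividing cells, had 29. SRRM2, a large protein of splicing speckles, and PLXNB2 had 26 each. HSP90B1 and PLXNB2 were thus among the strongest of both classes. Whether any of these intron bins lies on a small nucleolar or Cajal body RNA inside the intron was not determined. Their reads are therefore not certain to come from the intron of the mRNA precursor.

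**Figure D2:**
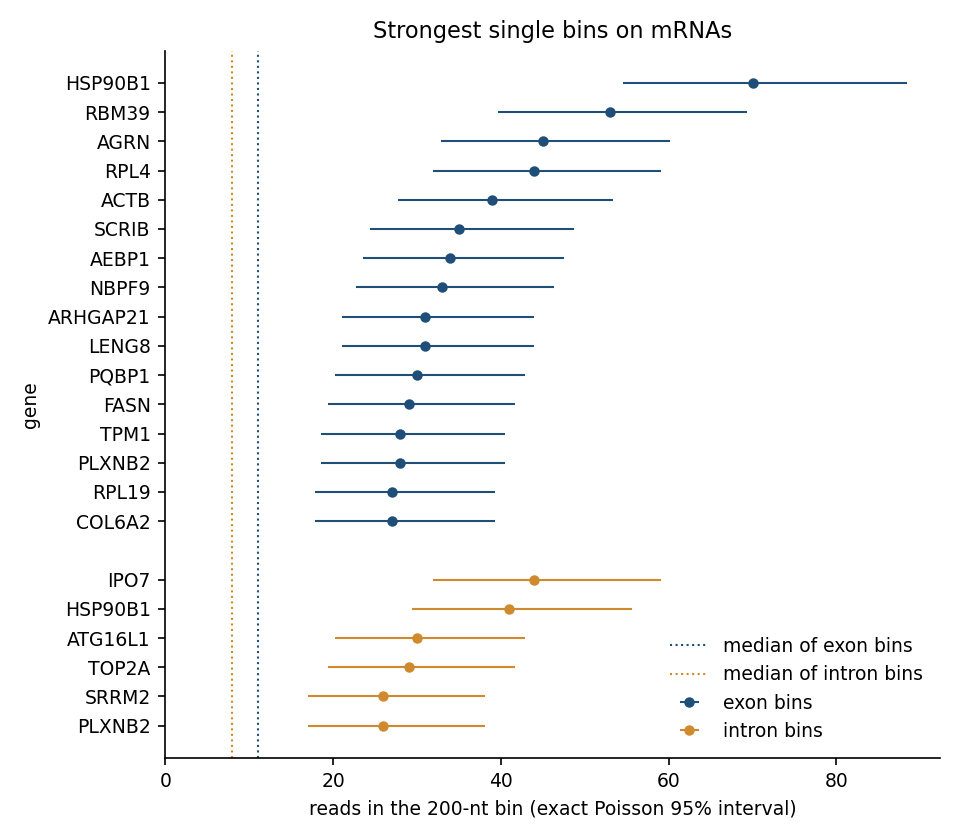
Reads in the bin (x axis) of the 16 strongest exon bins and the 6 strongest intron bins (y axis, by gene), as points with exact Poisson 95% intervals, and dotted lines at the medians of 11 and 8 reads. HSP90B1 leads the exon bins at 70 reads, and the intervals of most other bins overlap.

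Reads of the IP library depend both on binding and on how much of an RNA the nuclei held. Without values of the Input library these cannot be told apart for any of the bins named above.

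The width criterion left out 120 exon peaks on mRNAs that joined 2 or more bins. Their median was 14.6 reads per bin (quartiles 12.5 and 18.0), above that of the isolated bins. Just outside the criterion stood 78 peaks of 2 bins with a median of 13.2 reads per bin, and the highest of them were on HSP90AA1 (200 reads per bin), the inducible cytoplasmic HSP90, NCL (82.5), the nucleolar protein nucleolin, LUC7L3 and HSP90AB1 (52.5 each). HSP90AA1 also had 4 isolated exon bins of 21, 14, 13 and 12 reads, and HSP90AB1 had 3 of 18, 17 and 13. All 7 isolated bins of these chaperone genes lay above the median of 11 reads and below the joined peaks just named. Joined exon peaks accompanied 56 of the 408 genes with an isolated exon bin (13.7%, 10.7 to 17.4) and 3 of the 143 genes with an isolated intron bin alone (2.10%, 0.716 to 5.99). Over the list, 74 of the 718 named genes had one. The 143 genes were chosen for lacking an isolated exon bin, so these shares are not directly comparable.

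Exon bins were spread thinly over genes. A lone exon bin was found in 262 of the 408 genes (64.2%, 59.5 to 68.7), 2 bins in 85 genes, 3 in 27, 4 in 17 and 5 or more in 17. The 17 genes with 5 or more bins held 126 bins (17.8%, 15.2 to 20.8). A lone intron bin was found in 196 of 247 genes (79.4%, 73.9 to 83.9), and 8 genes had 5 or more. The intron class holds fewer bins (349 against 707), which by itself leaves more genes with a lone bin, so these shares are not directly comparable.

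Genes with many exon bins encode very large proteins. AHNAK, a giant scaffold protein, led with 12 bins, of 10 to 17 reads (median 12.5), and had no intron bin. It also had 8 joined exon peaks, which the width criterion leaves out of its count. DST and MACF1, the spectraplakins that link actin to microtubules, had 11 bins (8 to 21 reads) and 10 bins (9 to 21). LAMA5, the laminin chain of basement membranes, also had 10 (7 to 23). FASN, FLNA (filamin A), MYH9 (nonmuscle myosin heavy chain) and PRKDC (the DNA-dependent protein kinase) had 8 each, with medians of 14, 11, 12 and 9 reads. RNF213, a giant ubiquitin ligase, had 7.

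HSP90B1 was of another kind, with 6 bins on 2782 nt of exonic sequence in its canonical transcript, which was 2.16 bins per kb. In AHNAK, with 18761 nt, the density was 0.64 bins per kb, in DST 0.45, in MACF1 0.41 and in LAMA5 0.88. The 6 bins of HSP90B1 held 70, 21, 21, 13, 12 and 7 reads, so that the highest was 10 times the lowest. A gene on the opposite strand overlaps HSP90B1 and LAMA5 but not AHNAK, DST or MACF1, and its reads could not be separated. With the bins of joined exon peaks included, the densities were 2.88 bins per kb in HSP90B1, 1.81 in AHNAK, 1.40 in LAMA5, 0.53 in DST and 0.49 in MACF1, so the low density of AHNAK depended largely on the width criterion.

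In the 146 genes with 2 or more exon bins, the highest bin exceeded the lowest by a median of 1.5 times (quartiles 1.2 and 1.9), and in 11 of these genes all bins were equal. The Poisson intervals of the highest and the lowest bin lay apart in 10 genes. These were HSP90B1, RBM39 (53 and 7 reads), AGRN (45, 21, 15, 14 and 14), SCRIB (35, 14 and 6), AEBP1 (34, 13 and 11), ARHGAP21, FASN, STK25 (25, 9 and 7), RSRC2 (25 and 6) and LAMA5. In AHNAK and DYNC1H1 the intervals of the highest and the lowest bin overlapped. The highest and the lowest bin are picked from the same gene, so that genes with more bins have a wider range by construction.

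**Figure D3:**
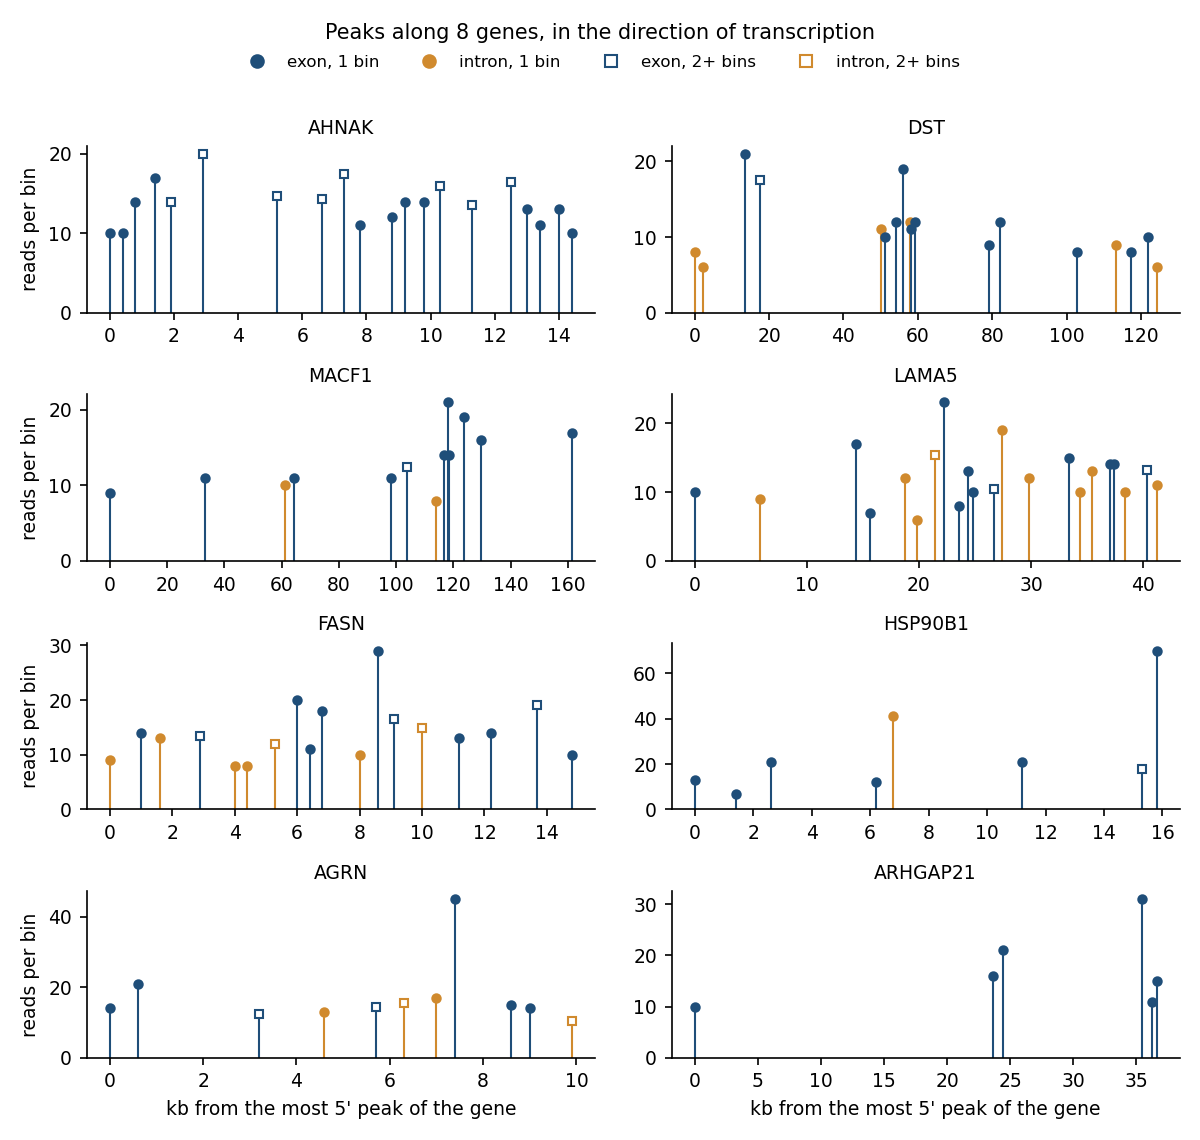
Distance from the most 5′ peak (x axis, kb, along the direction of transcription) against reads per bin (y axis) for all exon and intron peaks of 8 genes, with filled circles for peaks of 1 bin and open squares for joined peaks. AHNAK shows level exon signal over 14.4 kb, LAMA5 and FASN alternate between exon and intron peaks, and HSP90B1 and AGRN show 1 exon bin of 70 and 45 reads far above their other exon bins.

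Neighbouring exon bins of a gene were a median of 3200 nt apart from start to start (quartiles 1100 and 9300, 299 pairs in 146 genes). The intron bins gave 3400 nt (1600 and 6750, 102 pairs in 51 genes). Joined peaks that lay between such bins were skipped in these distances. With exon peaks of any width the median was 2400 nt. The smallest distance that can occur is 400 nt, because touching bins were joined in the list, and it was found in 26 exon pairs (8.70%, 6.003 to 12.4) and 4 intron pairs (3.92%, 1.54 to 9.65). Up to 1000 nt separated 75 exon pairs (25.1%, 20.5 to 30.3) and 17 intron pairs (16.7%, 10.7 to 25.1). More than 10000 nt separated 70 exon pairs (23.4%, 19.0 to 28.5) and 19 intron pairs (18.6%, 12.3 to 27.3). All 3 pairs of intervals overlapped, so the spacing of exon and intron bins could not be told apart at this number of pairs.

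The distances were set against the length of exons, taken by gene name from GENCODE release 44. In 177 of 299 pairs (59.2%, 53.5 to 64.6) the gap between the bins was longer than the longest exon of any transcript of the gene, so that by this annotation no single exon reaches both bins. The remaining pairs, among them all 26 at 400 nt, could touch the same exon. AHNAK, whose longest exon is 18173 nt, was the clearest such case, with a median distance of 600 nt, and its peaks covered a stretch of 14600 nt, which is shorter than this exon. LAMA5 has no exon over 576 nt, and its median distance was 1400 nt, so most of its neighbouring bins lie too far apart for 1 exon to reach both. In MACF1 the median was 18600 nt and in RNF213 12900 nt. The widest pair of all was in DOCK5, an activator of small GTPases, at 92600 nt.

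**Figure D4:**
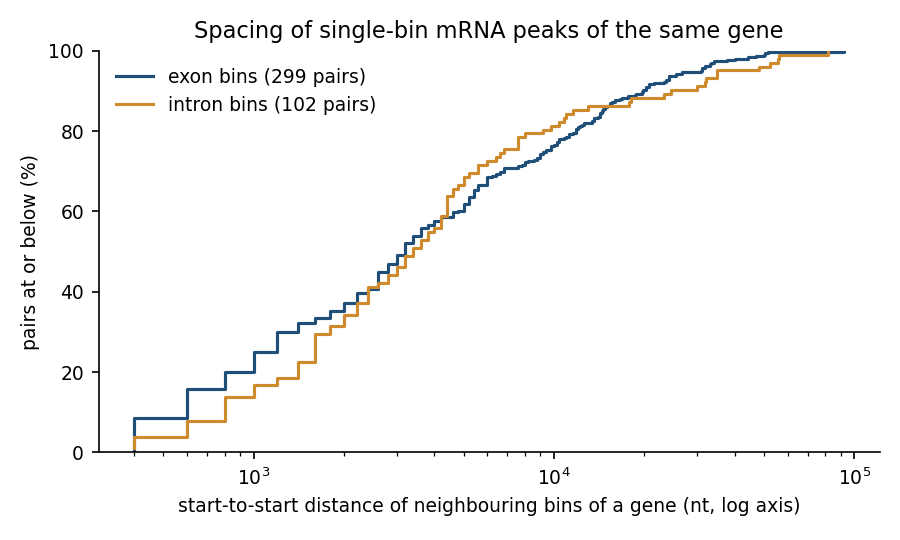
Start-to-start distance between neighbouring bins of the same gene (x axis, nt, log axis) against the cumulative share of pairs (y axis, percent), for 299 exon pairs and 102 intron pairs on mRNAs. The exon curve starts higher, with 25.1% of pairs within 1000 nt against 16.7%, and the curves run close together around the medians of 3200 and 3400 nt.

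Isolated exon and intron bins met on 104 genes, which were 25.5% of the genes with exon bins (21.5 to 29.9) and 42.1% of those with intron bins (36.1 to 48.3). These genes held 278 exon bins, 39.3% of the class (35.8 to 43.0). Their exon bins had a median of 12 reads and those of the 304 genes without intron bins a median of 10. Intron bins behaved alike, with a median of 10 reads in the 104 genes and 8 in the 143 genes with intron bins alone. In both classes bins on shared genes were thus the higher ones.

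Within the 104 genes, exon bins averaged 0.30 higher than intron bins on the log2 scale (SD 0.55 over genes). The exon bins were higher in 69 genes, lower in 32 and equal in 3. PQBP1 was among the first, with exon bins of 30 and 17 reads and intron bins of 11 and 7. Its mRNA was also made from the overexpression construct, whose part in this difference was not tested. HSP90B1 was among the second, because its single intron bin of 41 reads exceeded 5 of its 6 exon bins. Along the direction of transcription the exon bins lay mostly downstream of the intron bins in 54 genes, mostly upstream in 35 and evenly in 15. The nearest exon and intron bins of a gene were a median of 1400 nt apart.

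The genes were then grouped by function with 18 gene lists of 1090 genes. The lists follow common functional classes but were written with earlier results of these data known, so their shares are descriptions and not independent evidence about a class. Over all 20052 protein-coding genes, 2.03% had an isolated exon bin and 1.23% an isolated intron bin. These are shares of all genes whether or not they are expressed in HEY cells, and the lists hold many genes that most cells express strongly, whose part in the shares was not tested. The lists held 183 of the 408 genes and 380 of the 707 exon bins (53.7%, 50.1 to 57.4). They also held 161 of the 349 intron bins (46.1%, 41.0 to 51.4), and the intervals of the classes overlapped. Exon bins in the lists had a median of 11 reads and those outside them 10. For intron bins the medians were 9 and 8, so that the lists differ more in the number of bins than in their height.

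Cytoplasmic ribosomal proteins had the highest share, with 27 of 79 genes (34.2%, 24.7 to 45.2) and 34 bins with a median of 13.5 reads. Intron bins were found on 11 of these genes. The leading bins were those of RPL4 (44 and 26 reads) and RPL19 (27). Most of these genes have pseudogenes, and their reads are uncertain for that reason. Among translation factors 9 of 48 genes had exon bins and 8 had intron bins. EEF2, the elongation factor that moves the ribosome along mRNA, had exon bins of 25, 18 and 11 reads, and EIF4G1, the scaffold of cap-dependent initiation, had 17 and 13.

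Actin cytoskeleton and linker genes were next, with 22 of 83 genes (26.5%, 18.2 to 36.9) and 83 exon bins, the most of any list, at a median of 12 reads. Intron bins were found on 16 of them. ACTB (39 reads) and TPM1 (28 and 26) had the highest bins. Extracellular matrix, integrin and adhesion genes had exon bins on 21 of 80 genes (26.2%, 17.9 to 36.8), with 56 bins at a median of 12.5 reads, and intron bins on 12. Here AGRN (45 reads) and PLXNB2 (28) led, and the chains of type I, III and VI collagen and of laminin were present. Genes of microtubules and their motors had exon bins on 11 of 67 genes (16.4%, 9.42 to 27.1) and intron bins on 0. The interval of this 0, up to 5.42%, holds the 1.23% over all protein-coding genes. Intron bins were found on DST and MACF1, counted with the actin genes, and on the tubulin gene TUBG2, outside this list. MAP1B, a microtubule-binding protein, had exon bins of 22, 14, 14 and 11 reads, and DYNC1H1, the motor subunit of dynein, had 16, 15, 11, 10 and 7.

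Genes of the spliceosome and of SR and hnRNP proteins had exon bins on 19 of 94 genes (20.2%, 13.3 to 29.4) and intron bins on 8. The 29 exon bins had a median of 11 reads, as over all exon bins. RBM39 (53 and 7 reads) and PQBP1 led. SF3B1, the U2 snRNP component that meets the branch point, had 1 exon bin of 11 reads, on chromosome 2 from 198281401 to 198281600. PRPF8 and SNRNP200 at the core of the spliceosome and SRRM2 were also among the 19.

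Chromatin and transcription genes had exon bins on 16 of 83 genes (19.3%, 12.2 to 29.0), among them TOP2A (18 reads), and intron bins on 5. For ubiquitin and proteasome genes the numbers were 11 of 62 and 4, with 17 reads in the highest bins, on RNF213 and PSMD2, a subunit of the proteasome. For receptors, kinases and GTPase exchange factors they were 12 of 69 and 6, with ARHGAP21 (31 reads) and DOCK1 (16) highest. Membrane traffic genes had exon bins on 9 of 55 and intron bins on 5, and GOLGA4, a tether of the Golgi, had 22 reads. Molecular chaperones had exon bins on 8 of 52 genes, but 20 bins in all, with HSP90B1 (70 reads) and HSP90AA1 (21) highest. Intron bins were found on 5 of the chaperone genes.

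The remaining lists had lower shares. Cell cycle and DNA replication genes had exon bins on 6 of 60 genes (10%, 4.66 to 20.1), led by CCND1 (cyclin D1) with 17 reads. Glycolysis, TCA cycle and nucleotide synthesis enzymes had exon bins on 4 of 57 genes (7.02%, 2.76 to 16.7), with ALDOA (19 reads) and GAPDH (16) highest. Nucleolar and ribosome assembly genes had them on 3 of 43 (6.98%, 2.40 to 18.6), led by NOP56 (11 reads). The intervals of these lists lay above the 2.03% over all protein-coding genes. Fatty acid and sterol synthesis had exon bins on 2 of 44 genes (4.55%, 1.26 to 15.1), led by FASN with its 8 bins. Nuclear pore and transport genes had them on 2 of 51 (3.92%, 1.08 to 13.2), with 10 reads on XPO7 and 7 on IPO8. Aminoacyl tRNA synthetases had them on 1 of 22 (4.55%, 0.807 to 21.8), with 6 reads on FARSA. For the fatty acid, nuclear pore and synthetase lists the interval held the 2.03%. Intron bins were found on 3 genes each of the cell cycle, glycolysis and fatty acid lists. They were found on 4 nucleolar genes, 1 nuclear transport gene (IPO7) and 1 synthetase gene. In the nucleolar and fatty acid lists, more genes thus had intron bins than exon bins. Of 41 apoptosis regulators 0 had an isolated exon or intron bin, and the Wilson interval of 0 to 8.57% holds the 2.03% and 1.23% found over all protein-coding genes. BAX, which forms pores in mitochondria during apoptosis, carried 1 exon peak of 2 bins and so fell outside the width criterion.

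**Figure D5:**
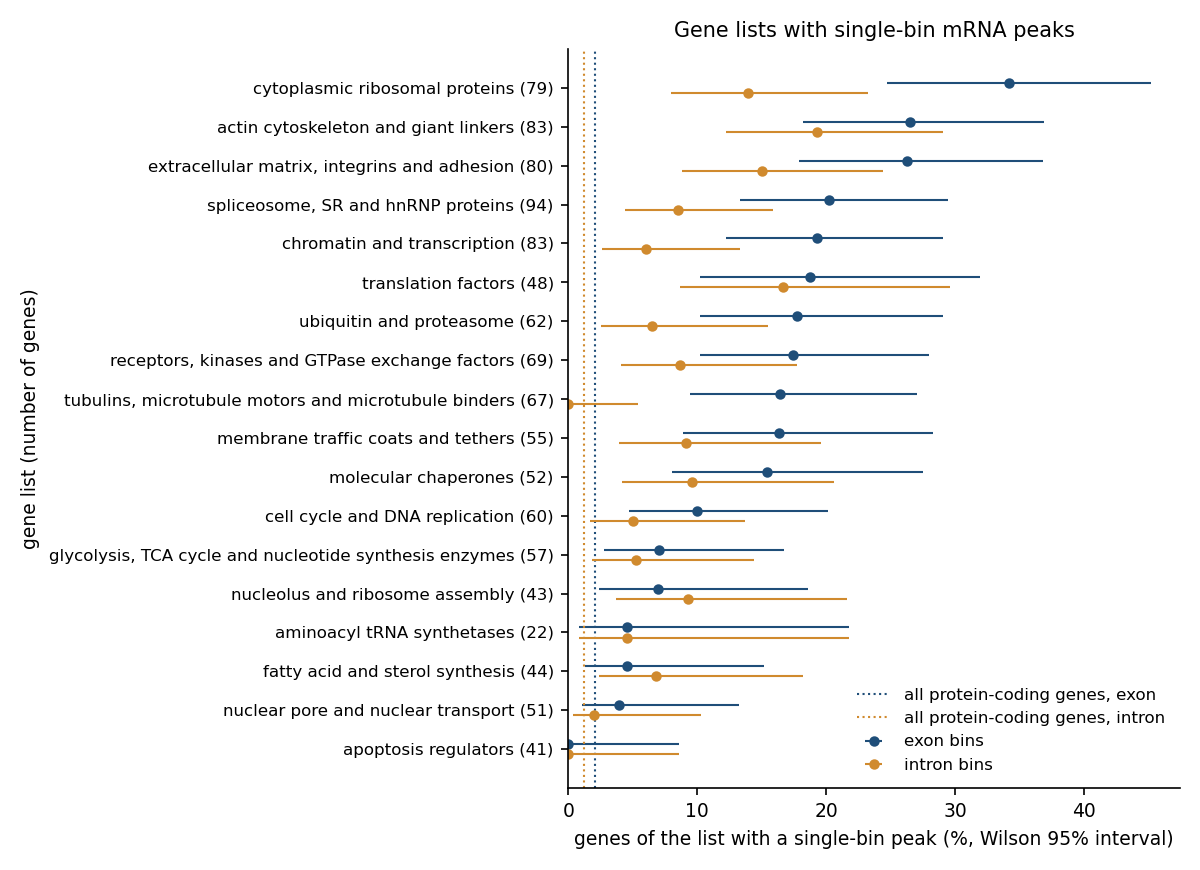
Share of the genes of each of 18 lists with an isolated exon or intron bin (x axis, percent, with Wilson 95% intervals), by list with its number of genes (y axis), and dotted lines at 2.03% and 1.23% for all protein-coding genes. Ribosomal protein genes stand highest for exon bins at 34.2%, and the interval of the apoptosis regulators, at 0 for both classes, includes both dotted lines.

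The genes with exon bins had more exons than most. By canonical transcript the median was 16 exons (quartiles 10 and 25) for genes with exon bins alone, 24 (15 and 38.8) for genes with both kinds of bin and 15 (10 and 23) for genes with intron bins alone, beside 8 (4 and 14) over all protein-coding genes. Median exonic length was 4456 nt, 4888 nt and 4359 nt in these 3 sets and 2886 nt over all genes. The typical intron of a gene was short, with a median of 742 nt for genes with exon bins alone, 422 nt for genes with both and 1210 nt for genes with intron bins alone, beside 1835 nt over all genes. The median exon measured 140 nt, 129 nt and 128 nt, beside 146 nt over all genes, which is shorter than a bin in each case, so that a bin on an exon of that length reaches past it.

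A small nucleolar or Cajal body RNA lay inside 26 of 303 genes with exon bins alone (8.58%, 5.92 to 12.3), 5 of 104 with both (4.81%, 2.07 to 10.8) and 12 of 141 with intron bins alone (8.51%, 4.94 to 14.3). Over all protein-coding genes it was 1.37%. Host genes with an exon bin of 20 reads or more were RPL4, EEF2 and RPL5. Whether an exon or intron bin lies on the small RNA itself was not determined, because positions were not converted. The 49 exon bins on host genes had a median of 11 reads, as over all exon bins. A gene on the opposite strand overlapped 74 of 303 genes with exon bins alone (24.4%, 19.9 to 29.6), 33 of 104 with both (31.7%, 23.6 to 41.2) and 29 of 141 with intron bins alone (20.6%, 14.7 to 27.98), beside 23.9% over all protein-coding genes. The strand of a peak in the list is that of its gene, so that reads of such an overlapping gene could not be separated. Among the genes of the strongest exon bins, HSP90B1, RPL4, LENG8 and PQBP1 had such an overlap.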

How the data were processed

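SpyCLIP-seq was carried out in HEY cells with 1 Input and 1 IP library, grouped by their titles. The authors trimmed and aligned the reads (TopHat2 2.0.13 per the labels), used Piranha for peak calling and HOMER for annotation. The deposited read value is a coverage signal, the mean number of reads per bin of 200 nt, not scaled to depth. Multiplied by the number of bins it was whole, within 0.01, in all 1489 peaks. The deposited p-value is that of the peak caller, and no source used here says if it was adjusted. How Input entered the peak calling is not stated, and Input values were not analysed here. Total depth is unknown. The labels name hg38, but 55 of 706 exon bins (7.79%) overlapped their gene on GRCh38, so positions are printed as listed, were not converted, and no sequence was read at them.

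Peaks were filtered and summarised with pandas 2.3.3, and intervals were computed with scipy 1.17.1 (Wilson for shares, exact Poisson for reads, both 95%). They cover counting error only, since PCR copies of a molecule carry no identifiers and are counted as separate reads, and bins and genes of 1 library are not replicates. Gene structure came from GENCODE release 44 by name, for 303 of 304, 104 of 104 and 141 of 143 genes. The functions were tested on simulated data. No test across genes was run. Named genes were PQBP1 and SF3B1, the 15 strongest exon bins and 5 strongest intron bins with ties, the genes with the most exon bins, the 2 highest genes of each list, and the closest and widest pairs. Other genes were named after their values were seen. Some genes that this rule names are not reported here. The members and lists were chosen with earlier results of these data known. Alternatives were 2 stricter p-value limits, a read minimum, any width, added UTR classes, all RNA types, 1 peak per gene, joining of near peaks, and leaving out genes with near-identical copies.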

Additional observations from a re-analysis of the deposited data

How the results depend on the processing

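Of 59 values recomputed under the alternatives, 48 stayed within 1.5 times the reported value, or for shares within its interval, and 11 moved. Only the log2 difference between exon and intron bins has a direction, and exon bins stayed the higher class under each alternative. A p-value limit of 0.001 left 452 exon bins, a log2 difference between exon and intron bins of 0.0774, and 30.3% of exon bins on genes with intron bins. A limit of 1e-05 left 280 exon bins on 191 genes, a log2 difference of 0.15, 70.2% of genes with a lone exon bin, and 25% of exon bins on genes with intron bins. A minimum of 10 reads per bin reduced the log2 difference to 0.0525 and the share on genes with intron bins to 29.5%. With 1 peak per gene that share was 25.5%. Limits on reads act on the value that is compared, and stricter limits leave fewer bins and genes by construction. The p-value limits were partly limits on reads as well. Among intron bins with 6 to 9 reads the smallest p-value of the peak caller was 0.0015, so both limits removed all of these bins. Other causes were not tested. For 1 peak per gene the numbers of peaks and genes, the share of lone bins and the distances follow from the setting or do not exist, and they were not computed. No paired analysis was possible because Input and IP comprise 1 library apiece. A bin of 11 reads has an exact Poisson interval of 5.49 to 19.7, and this depth limits what can be said of single bins.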

Other observations

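From the genes with exon bins, 15 that encode proteins rich in arginine and serine or linked to splicing speckles were picked after their values were seen, so the set supports nothing and has no test. It held 26 exon bins with a median of 11 reads, as over all exon bins, 4 of them with 20 reads or more, and 3 of the genes also had intron bins. LENG8 had exon bins of 31, 22 and 16 reads and intron bins of 24, 10 and 8. RBM39 had 53 and 7 reads, RSRC2 had 25 and 6, and neither had an intron bin. SRRM2 had exon bins of 18, 16 and 11 reads and intron bins of 26, 14 and 9, and PNN, the speckle protein pinin, had exon bins between 9 and 19 reads. In SRRM2 the highest bin was thus an intron bin, and in LENG8 an exon bin.

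Isolated exon bins were accompanied by a peak in the 3′ UTR of the same gene in 35 of 408 genes (8.58%, Wilson 95% interval 6.23 to 11.7) and by a peak in the 5′ UTR in 10 (2.45%, 1.34 to 4.45). Among the 143 genes with an isolated intron bin alone, 6 had a 3′ UTR peak (4.20%, 1.94 to 8.85) and 0 a 5′ UTR peak. The intervals for 3′ UTR peaks overlapped. The 143 genes were chosen for lacking an isolated exon bin, so these shares are not directly comparable.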
